A study of Mus musculus with 2 samples.

Results

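The genes described here encode the secreted factors of the bone morphogenetic protein (BMP) and transforming growth factor beta (TGF-beta) families, the cell surface receptors that bind them, and the proteins that block them. There are 40 genes, namely 16 ligands, 13 receptors or co-receptors and 11 antagonists. They were found as the non-control probes whose gene name on the array was one of the 40 symbols. All 40 had a probe, 58 probes in all, and 38 genes were bright enough to be measured among the 20104 genes tested on these arrays. The 2 that were not are the antagonists Grem1 and Bambi.

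Total RNA of whole dissected ureters of NMRI mouse embryos at E14.5 was hybridised to 2 two-colour Agilent arrays, each carrying 1 knockout and 1 control sample. The knockout, given as Pax2-cre/+;Smad4(fl/fl) in the series title and as Pax-cre/+;Smad4(fl/fl) in the sample labels, is meant to remove Smad4 from the ureteric epithelium, and the control is labelled Smad4(fl/?). Both genotypes carry a floxed Smad4 allele, the second control allele is not specified, and no Cre allele is named for the controls. On array 1 both samples were female, with the knockout in Cy3, and on array 2 both were male, with the knockout in Cy5. Sex and dye orientation therefore cannot be told apart. The sources used here do not give the number of embryos per sample or the litters, so p-values cover no spread beyond these 2 arrays. In limma the variance of each gene is also drawn towards that of all genes (1 residual degree of freedom, prior of 9.21). Because the RNA comes from the whole ureter, fewer cells of a type and less RNA per cell cannot be told apart.

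BMP and TGF-beta ligands are dimers that bring type I and type II receptor kinases together at the cell surface. The type I receptor then phosphorylates SMAD proteins, which join SMAD4 and enter the nucleus. Antagonists such as noggin, chordin and follistatin bind the ligands outside the cell and keep them from the receptors. In the developing ureter BMP4 is made by the mesenchyme around the epithelial tube, and signals to the mesenchyme and the epithelium. The comparison asks how transcripts of the ureter differ when the epithelium is meant to lack SMAD4.

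The arrays read each gene through probes of 60 bases, and those of the related ligands Tgfb1 and Tgfb2 are shown because their sequences overlap in part. On the array's genome build (mm9) the Tgfb1 probe lies at chr7:26489877-26489936 (+ strand) and the brighter Tgfb2 probe lies at chr1:188449333-188449392 (- strand). Exon and UTR annotation of mm9 was not used here. In the sequences, printed 5′ to 3′, capitals mark bases that are identical when the probes are slid along each other without gaps.
Tgfb1 probe: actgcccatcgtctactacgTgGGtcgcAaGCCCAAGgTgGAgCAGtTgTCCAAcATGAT
Tgfb2 probe: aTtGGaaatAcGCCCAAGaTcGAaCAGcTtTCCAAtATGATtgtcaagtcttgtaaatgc
The best such overlap of the Tgfb1 and Tgfb2 probes spans 41 bases, of which 28 (68.3%) are identical. How far a probe also binds the transcript of the related ligand was not tested.

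Promoter sequences, credited to RefSeq (GRCm38.p6), were available for 27 of the 40 genes. The 250 bases before the start of 4 genes are shown, 3 ligands among the lowest mean ratios and Eng, which has 2 matches to the short SMAD-binding motif CAGAC. Capitals mark CAGAC or, on the other strand, GTCTG.
Gdf10 promoter, chr14:33923337-33923586 (+ strand): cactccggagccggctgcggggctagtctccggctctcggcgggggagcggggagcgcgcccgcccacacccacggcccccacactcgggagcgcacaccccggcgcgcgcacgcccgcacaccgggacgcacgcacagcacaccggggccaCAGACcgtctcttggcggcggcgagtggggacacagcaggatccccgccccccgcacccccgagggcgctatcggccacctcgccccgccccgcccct
Inhbb promoter, chr1:119422249-119422498 (- strand): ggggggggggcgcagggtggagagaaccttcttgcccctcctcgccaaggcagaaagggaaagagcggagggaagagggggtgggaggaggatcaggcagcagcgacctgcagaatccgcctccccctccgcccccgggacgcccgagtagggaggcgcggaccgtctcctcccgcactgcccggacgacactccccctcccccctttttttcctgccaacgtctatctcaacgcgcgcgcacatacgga
Bmp4 promoter, chr14:46390670-46390919 (- strand): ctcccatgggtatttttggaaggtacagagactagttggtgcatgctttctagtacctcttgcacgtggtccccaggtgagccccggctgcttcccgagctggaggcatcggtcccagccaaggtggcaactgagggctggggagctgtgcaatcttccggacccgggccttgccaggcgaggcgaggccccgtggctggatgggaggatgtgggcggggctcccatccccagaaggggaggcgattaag
Eng promoter, chr2:32646345-32646594 (+ strand): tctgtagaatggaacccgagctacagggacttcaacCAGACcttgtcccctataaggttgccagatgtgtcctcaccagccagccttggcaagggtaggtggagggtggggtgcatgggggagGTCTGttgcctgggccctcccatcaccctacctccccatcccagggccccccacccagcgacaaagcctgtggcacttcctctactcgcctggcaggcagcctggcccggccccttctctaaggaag
The Gdf10 stretch holds 1 match, and the Inhbb and Bmp4 stretches hold none of these letters. Over all promoters of the same length in the table, 13861 of 32851 (42.2%) held CAGAC on either strand. The share was 15 of 32 (46.9%) for the promoters of the genes described here, where a gene with several starts counts once per start. The GC-rich SMAD motif GGCGCC, which reads the same on both strands, was in 3149 (9.6%) of all promoters and in 7 of 32 (21.9%) of these. Differences in GC content between promoters were not taken into account. Such matches describe the letters in these windows and not binding.

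All values below are log2 ratios of labelled knockout over labelled control unless stated. By the dyes in the labels, the authors' deposited table runs the other way, control over knockout, although its titles name the knockout first. Across all probes, 69.0% and 66.6% were well above background in the knockout channels of arrays 1 and 2, and 67.4% and 68.5% in the control channels, and no spot was saturated. Smad4 itself read -0.58 on array 1 and -0.08 on array 2, and its limma adjusted p was 1.00 at a mean of -0.33 ± 0.36 (SD, n = 2 arrays). The sources used here do not say where the deleted part lies relative to its probe, so this value does not check the labels.

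None of the 38 measured genes passed the test at an adjusted p under 0.05 (limma, Benjamini-Hochberg over all 20104 genes), where 66 of all genes (0.328%) did. Their adjusted p-values ran from 0.946 to 1.00. At an unadjusted p under 0.05 there were 5 genes, all with lower signal in labelled knockout (Gdf10, Inhbb, Bmp4, Tgfb3 and Rgmb, with limma p from 0.0261 to 0.0412 before adjustment), beside 914 of all genes (4.55%). The largest difference of a mean was 1.36-fold, for Gdf10. The 95% intervals of the 38 means reached at most 1.78-fold, so these arrays leave room for changes below that size. An exact sign-flip test over 2 arrays cannot go below p = 0.5.

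The ratios were small and mostly below 0. They were below 0 on both arrays for 23 of the 38 genes (60.5%), beside 24.6% of all genes, and above 0 on both for 1 gene, Nbl1 (2.63%, beside 21.7% of all genes). The other 14 genes had opposite signs. The median of the 38 means was -0.14, a 1.10-fold difference, where the median of all genes was -0.0044. No gene was at least 1.2-fold lower or higher on both arrays, beside 0.925% and 1.16% of all genes. Each array was also centred on its median in place of loess normalisation. Then 17 of the 38 genes were below 0 on both arrays (all genes 17.2%) and 0 above (all genes 24.6%), with a median of -0.12.

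The arrays did not contribute alike. Their log2 ratios were almost uncorrelated across genes, with a Pearson r of 0.03 over the 38 genes and 0.02 over all 20104 genes. On array 1, 34 of the 38 genes were below 0 (89.5%, all genes 51.7%), with a median of -0.16. On array 2, 26 were (68.4%, all genes 51.1%), with a median of -0.0777. Of the 14 genes with opposite signs, 11 were lower in labelled knockout on array 1 and higher on array 2. The SD between arrays had a median of 0.12 over the genes, against a median SD of 0.0516 on array 1 and 0.0532 on array 2 between the spots of the same probe. Sex, dye and sample cannot be told apart in the spread between arrays.

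**Figure D1:**
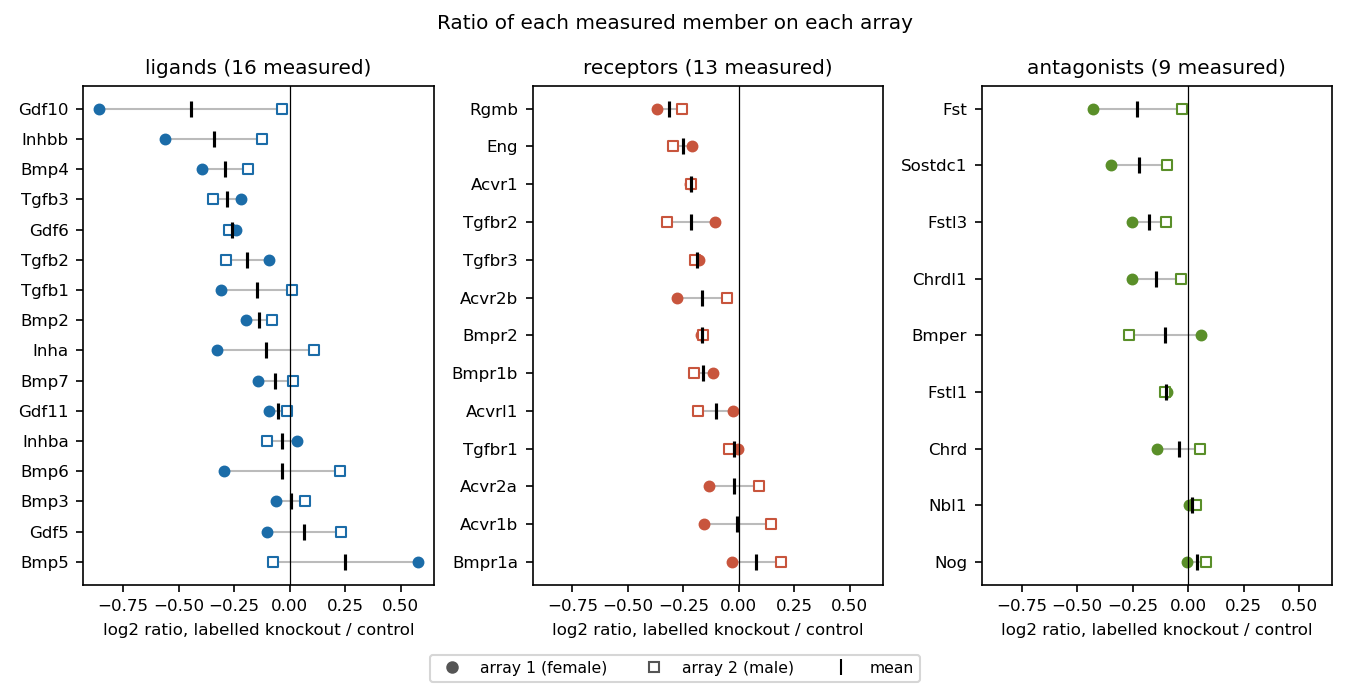
Log2 ratio of labelled knockout over labelled control on the x axis for each of the 38 measured genes, by role, with a filled circle for array 1, an open square for array 2 and a bar for their mean. Most points lie left of 0, Gdf10 and Bmp5 show the widest gaps between arrays, and Nbl1 is the only gene with both points right of 0.

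**Figure D2:**
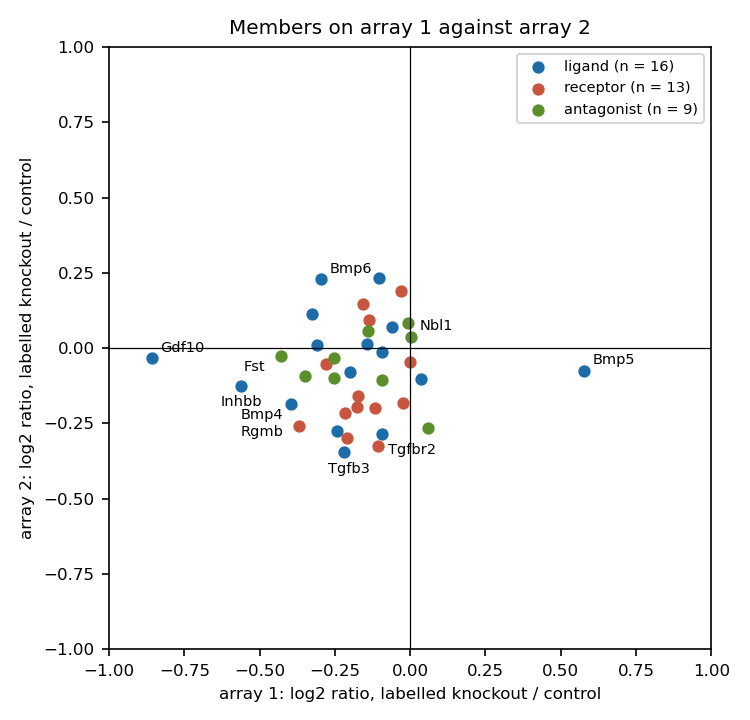
Log2 ratio on array 1 (x axis) against array 2 (y axis) for the 38 measured genes, coloured by role. The lower left field holds 23 genes and the upper right field holds 1, while Gdf10 (-0.86 and -0.03) and Bmp5 (0.58 and -0.07) stand out along the x axis only.

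Among the 16 ligands, all measured, 8 were below 0 on both arrays and none above (all genes 24.6% and 21.7%), with a median of -0.12. The BMP and GDF ligands were split, with 5 of 10 below 0 on both arrays. Bmp4, the mesenchymal ligand of the ureter, was measured by a probe at mm9 chr14:47003391-47003450. Its log2 intensity was 14.91 in knockout and 15.31 in control on array 1, and 14.89 and 15.08 on array 2. Both knockout samples lay below both controls. Here and below, such comparisons across arrays mix in sex and array, and how many of all genes show them was not counted. The mean ratio was -0.29 ± 0.15 (SD, n = 2 arrays), 1.22-fold lower (95% interval of the log2 ratio -0.57 to -0.02), with a limma adjusted p of 1.00. A second Bmp4 probe, at chr14:47003198-47003257 and with 15.0% G and C, was not well above background in any channel.

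Gdf10, also called BMP3B, had the lowest mean of the 38 genes but on the strength of 1 array. Its log2 intensity was 11.25 in knockout and 12.11 in control on array 1, and 11.17 and 11.20 on array 2. The female control alone was high, while the other 3 samples were close together. The mean was -0.45 ± 0.58 (SD, n = 2 arrays), with a limma adjusted p of 0.970, and array 2 alone read -0.03. The probe lies at mm9 chr14:34748161-34748220.

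Bmp5 and Bmp6 went opposite ways on the 2 arrays. Bmp5, a BMP of the same subgroup as BMP7, read 10.66 in knockout and 10.08 in control on array 1, and 10.40 and 10.48 on array 2. Here the female control was the low sample, and the 3 others were within a narrow range. Its mean of 0.25 ± 0.46 (SD, n = 2 arrays) was the highest of the 38 genes (limma adjusted p = 1.00). Bmp6 read 8.89 and 9.19 on array 1, and 8.72 and 8.49 on array 2, so that the control samples enclosed both knockout samples. Its ratios of -0.30 and 0.23 gave a mean of -0.03 ± 0.37 (SD, n = 2 arrays).

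Bmp7, known for its part in survival of kidney progenitors, read -0.14 on array 1 and 0.01 on array 2. Bmp2 read -0.20 and -0.08. Gdf6, a ligand of skeletal and eye development, was alike on both arrays, at -0.24 and -0.27, with a dim probe (log2 intensity 7.26 to 7.55). Gdf5, its close relative in joint formation, read -0.10 and 0.23, and its second probe read 0.07 and -0.05. Gdf11, which patterns the body axis, read -0.09 and -0.01, and Bmp3 read -0.06 and 0.07. Of these genes, Gdf6, Bmp2 and Gdf11 were below 0 on both arrays and Bmp7, Gdf5 and Bmp3 had opposite signs.

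The 3 TGF-beta ligands had means below 0, and 2 of them were below 0 on both arrays (all genes 24.6%). Tgfb3 read 14.58 in knockout and 14.80 in control on array 1, and 14.38 and 14.72 on array 2. Knockout was lower on each array, and the 2 knockout samples lay below both controls. The mean was -0.28 ± 0.09 (SD, n = 2 arrays), 1.22-fold lower, with a limma adjusted p of 1.00. Its probe lies at mm9 chr12:87397804-87397863.

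Tgfb2, printed above, read 14.11 and 14.20 on array 1, and 13.80 and 14.08 on array 2, where the female knockout lay above the male control. Its ratios were -0.10 and -0.29, and the second probe gave -0.31 and -0.17, both probes below 0 on both arrays. Tgfb1 read -0.31 on array 1 and 0.01 on array 2. No TGF-beta ligand thus had a higher mean in labelled knockout.

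The activin and inhibin chains are subunits that pair with each other: beta chains give activins, and the alpha chain with a beta chain gives inhibin, which blocks activin. Inhbb, the activin beta B chain, read 8.53 in knockout and 9.09 in control on array 1, and 8.54 and 8.67 on array 2. The knockout samples were nearly equal and both lay below the controls, which differed from each other. The mean was -0.34 ± 0.31 (SD, n = 2 arrays), 1.27-fold lower, with a limma adjusted p of 0.987. Inhba, the beta A chain, read 0.04 and -0.10, and Inha, the alpha chain, -0.33 and 0.11. Of these 3 genes 1, Inhbb, was below 0 on both arrays (all genes 24.6%).

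Among the 13 receptors and co-receptors, 10 were below 0 on both arrays and none above (all genes 24.6% and 21.7%). The other 3 had opposite signs, and the median was -0.17. All 13 were below 0 on array 1 (all genes 51.7%). None passed, and the largest difference of a mean was 1.24-fold, for Rgmb. The 6 type I receptors, the kinases that phosphorylate SMADs, had 4 genes below 0 on both arrays and a median of -0.06. Acvr1, also called ALK2 and a BMP type I receptor, gave the same ratio on both arrays. It read 13.87 in knockout and 14.08 in control on array 1, and 13.83 and 14.04 on array 2, so both knockout samples lay below both controls. The mean was -0.22 ± 0.0015 (SD, n = 2 arrays; limma adjusted p = 1.00). The other 2 kept probes had means of -0.12 and -0.08, so the size depended on the probe. The probe at -0.08 was near background, with 0 knockout spots well above it on array 2. It passed the filter only through the control, so its sign cannot serve as a check.

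Bmpr1a, the BMP type I receptor ALK3, was the one receptor with a mean above 0, with -0.03 on array 1 and 0.19 on array 2 (mean 0.08 ± 0.15, SD, n = 2 arrays). Bmpr1b, its relative ALK6, read -0.12 and -0.20, with a second probe at -0.20 and -0.13. Acvrl1, the endothelial receptor ALK1, read -0.02 and -0.18. Acvr1b, the activin receptor ALK4, read 11.60 in knockout and 11.76 in control on array 1, and 11.59 and 11.44 on array 2. Knockout was nearly the same on both arrays, with 1 control higher and 1 lower. Tgfbr1, the TGF-beta receptor ALK5, read 13.46 in both samples of array 1, and 13.47 and 13.52 on array 2. Its ratios were near 0 with the brightest probe. The 2 other kept probes, far dimmer at log2 intensities of 7.39 to 8.08, had means of 0.15 and 0.04.

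The 4 type II receptors, which activate the type I receptors, had 3 genes below 0 on both arrays (all genes 24.6%) and a median of -0.17. Tgfbr2, which binds TGF-beta directly, read 13.26 in knockout and 13.36 in control on array 1, and 12.94 and 13.26 on array 2. The male knockout was the low sample, while the female knockout nearly equalled the male control. The mean was -0.22 ± 0.15 (SD, n = 2 arrays; limma adjusted p = 1.00), and a second, dimmer probe gave 0.06 and -0.04. The brighter probe lies at mm9 chr9:115997155-115997214 and the dimmer one at chr9:115999496-115999555.

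Acvr2b, an activin type II receptor, read 13.86 and 14.14 on array 1, and 13.79 and 13.84 on array 2, where the female knockout lay slightly above the male control. Its ratios were -0.28 and -0.05, and a second probe near background gave -0.05 and 0.10. Acvr2a, its relative, read 10.03 and 10.17 on array 1, and 10.06 and 9.97 on array 2. The knockout samples lay between the controls, with ratios of -0.14 and 0.09, and a second probe gave 0.23 and 0.03. Bmpr2, the BMP type II receptor, read -0.17 on array 1 and -0.16 on array 2.

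The 3 co-receptors, which present ligand to the kinases, were below 0 on both arrays (all genes 24.6%), with a median of -0.25. Rgmb, a membrane-anchored BMP co-receptor also called DRAGON, read 10.23 in knockout and 10.60 in control on array 1, and 10.07 and 10.32 on array 2. Both knockout samples lay below both controls. The mean was -0.31 ± 0.08 (SD, n = 2 arrays), 1.24-fold lower (95% interval of the log2 ratio -0.58 to -0.05), and its adjusted p of 0.946 (limma) was the lowest of the 38 genes. A second, dimmer probe gave -0.13 and -0.03. The brighter probe lies at mm9 chr17:15941859-15941918.

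Eng, the endothelial co-receptor endoglin, read 10.66 and 10.87 on array 1, and 10.38 and 10.68 on array 2. Knockout was lower on each array, but the female knockout and the male control were close. The mean was -0.25 ± 0.06 (SD, n = 2 arrays; limma adjusted p = 1.00). Tgfbr3, or betaglycan, which presents TGF-beta 2 and inhibin, read -0.18 and -0.20. The 7 endothelial markers (Pecam1, Cdh5, Kdr, Tek, Tie1, Emcn and Flt1) were all well above background in every channel. Of these, 4 were below 0 on both arrays and none above (all genes 24.6% and 21.7%), with a median of -0.15. Their summed intensity was 25912 in knockout and 29808 in control on array 1, and 21893 and 25938 on array 2. Their part in the Eng and Acvrl1 values was not tested.

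**Figure D3:**
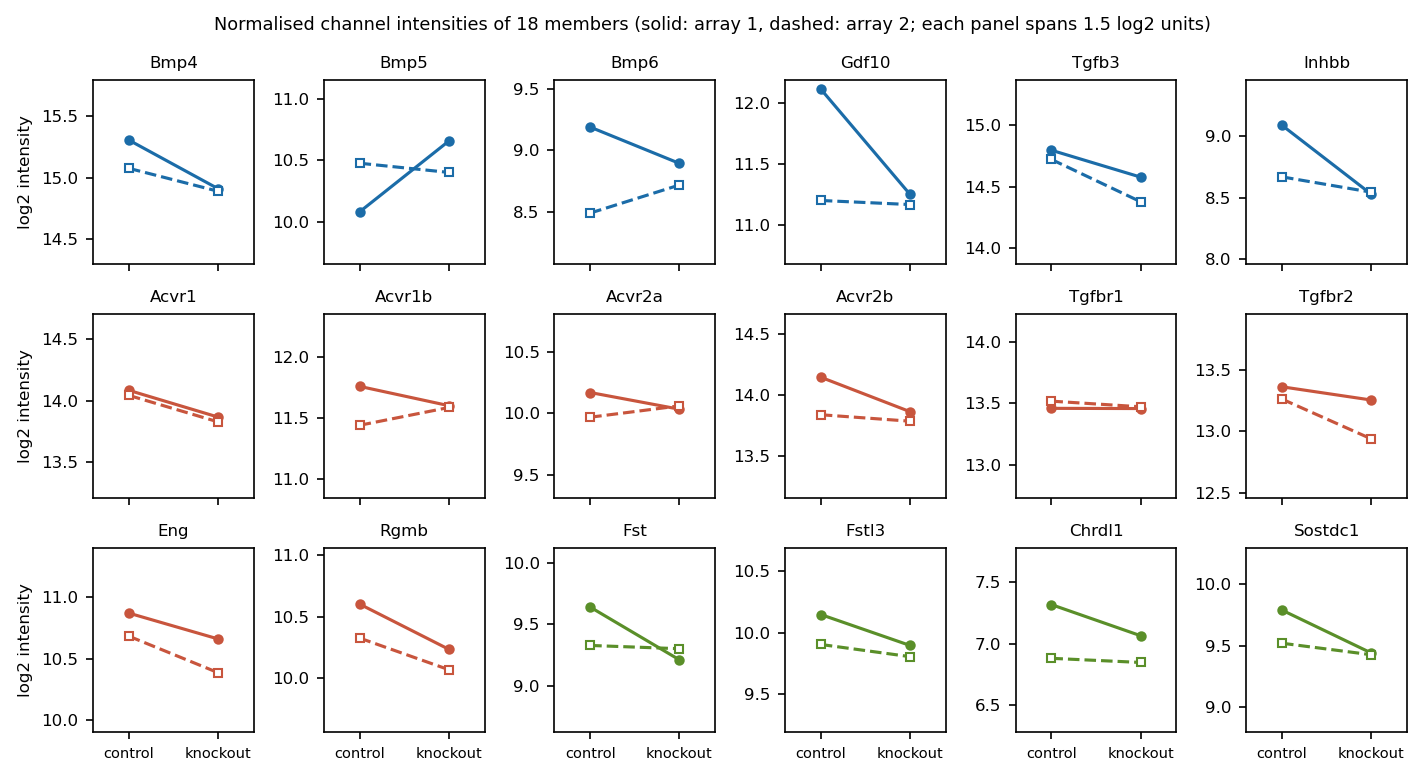
Normalised log2 intensity (y axis, each panel spanning 1.5 log2 units) in the labelled control and labelled knockout sample (x axis) of array 1 (solid line) and array 2 (dashed line) for 18 genes. Lines slope down on both arrays for genes such as Bmp4, Tgfb3, Acvr1 and Rgmb, cross for Bmp5, and differ mainly in the array 1 control for Gdf10 and Inhbb.

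Of the 11 antagonists 9 were measured. Among these 5 were below 0 on both arrays and 1 above (all genes 24.6% and 21.7%). The other 3 were of opposite sign, and the median was -0.10. Grem1, a BMP antagonist of the kidney region, had 2 spots above background in each channel of array 1 and 0 on array 2. Bambi, a pseudoreceptor that lacks a kinase, had 0 in every channel. No ratio is given for these 2 genes.

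The 3 follistatin-type genes were below 0 on both arrays (all genes 24.6%). Fst, or follistatin, which traps activin, read 9.21 in knockout and 9.64 in control on array 1, and 9.30 and 9.33 on array 2. The female control was high and the other 3 samples were close. The mean was -0.23 ± 0.29 (SD, n = 2 arrays), and the array 2 value was -0.03. Fstl3, its relative, read 9.90 and 10.15 on array 1, and 9.81 and 9.90 on array 2, a mean of -0.18 ± 0.11 (SD, n = 2 arrays). The female knockout and the male control thus read alike. Fstl1, a secreted glycoprotein of mesenchyme, read -0.09 and -0.11.

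The chordin-type genes were dim or variable. Chrdl1, chordin-like 1, read 7.06 and 7.32 on array 1, and 6.85 and 6.88 on array 2, where its knockout channel had 0 spots above background. A second kept probe gave 0.04 and 0.11, opposite in sign to the -0.25 and -0.03 of the brighter one. The brighter probe passed the filter only through the control and the second only through the knockout, so these signs carry little weight. The stricter filter left Chrdl1 out, and 22 of 37 genes were then below 0 on both arrays (all genes 24.6%). Chrd, or chordin, read -0.14 and 0.06. Bmper, a secreted modulator of BMP activity, read 0.06 and -0.26, and so was one of 3 genes lower in labelled knockout on array 2 alone, with Bmp5 and Inhba.

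Sostdc1, a secreted antagonist of BMP and WNT ligands, was the cystine-knot antagonist with the lowest values. It read 9.44 in knockout and 9.79 in control on array 1, and 9.43 and 9.52 on array 2. Both knockout samples lay below both controls. The mean was -0.22 ± 0.18 (SD, n = 2 arrays; limma adjusted p = 1.00), and its second probe, at mm9 chr12:37044532-37044591, gave -0.36 and -0.22. Nog, or noggin, read -0.01 and 0.08 with a dim probe (log2 intensity 7.29 to 7.37). Nbl1, also called DAN, read 0.0023 and 0.04, and was above 0 on both arrays by very little.

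For 13 of the genes several probes were kept. The means of these probes had the same sign in 7 genes and differed in 6, namely Acvr1b, Acvr2a, Acvr2b, Chrdl1, Tgfbr1 and Tgfbr2. In those genes the other probe was dimmer than the one used. Some kept probes passed the filter through 1 genotype only, namely a dim probe each of Acvr1 and Acvr2b and both probes of Chrdl1. Their signs carry little weight. With the mean over probes in place of the brightest probe, 20 genes were below 0 on both arrays (all genes 24.2%) and 3 above (all genes 22.9%).

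**Figure D4:**
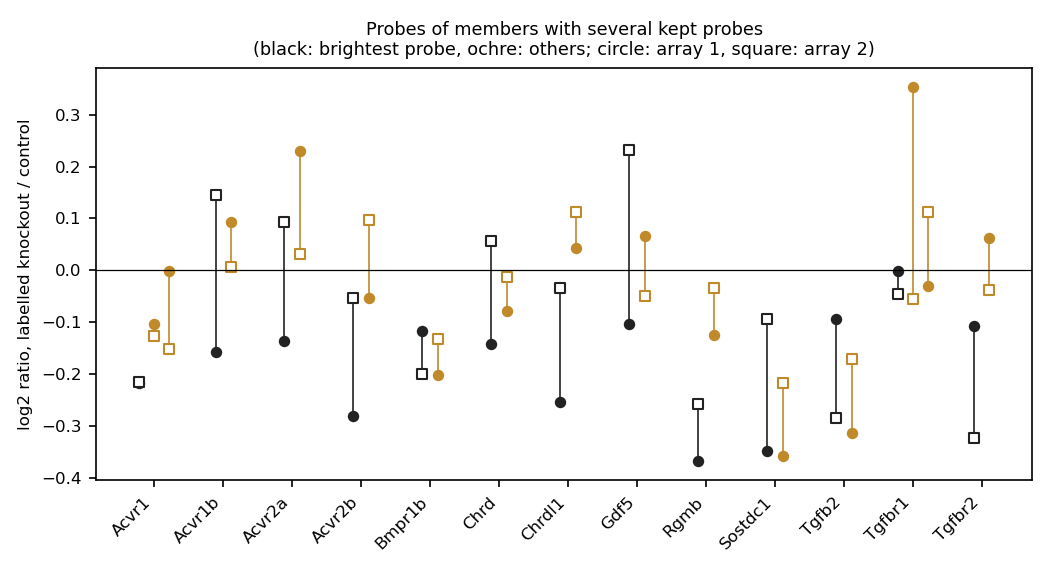
Log2 ratio of labelled knockout over labelled control (y axis) for each kept probe of the 13 genes with several (x axis), with the brightest probe in black, others in ochre, circles for array 1 and squares for array 2. Both Sostdc1, both Tgfb2 and both Bmpr1b probes lie below 0 on both arrays, whereas for Tgfbr1 and Acvr2a the means of the probes differ in sign and single points lie on either side.

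The rest of the pathway was read through 72 further genes, of which 63 were measured. None passed (limma), and 4 were higher and 5 lower in labelled knockout at an unadjusted p under 0.05 (all genes, either direction, 4.55%). Of the 63, 21 were below 0 on both arrays (33.3%, all genes 24.6%) and 9 above (14.3%, all genes 21.7%), with a median of -0.05. Crim1, a membrane protein with chordin-type repeats that binds BMPs, stood apart from them. It read 9.01 in knockout and 8.40 in control on array 1, and 8.83 and 8.16 on array 2, so both knockout samples lay above both controls. Its mean of 0.64 ± 0.05 (SD, n = 2 arrays) is 1.56-fold higher, with a limma adjusted p of 0.0790. Crim1 passed with Agilent's processed signals and in 6 other alternatives.

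Nedd4l, a ubiquitin ligase acting on SMADs and TGF-beta receptors, had the lowest mean of these genes. It read 12.51 in knockout and 12.90 in control on array 1, and 12.46 and 12.77 on array 2. The knockout samples lay below both controls. The mean was -0.35 ± 0.06 (SD, n = 2 arrays), with a limma adjusted p of 0.735. Acvr1c, the type I receptor ALK7, read 7.05 in knockout and 7.59 in control on array 1, and 7.01 and 7.09 on array 2, with a mean of -0.31 ± 0.33 (SD, n = 2 arrays). Lefty2, an antagonist of NODAL, read 8.38 and 8.83 on array 1, and 8.39 and 8.55 on array 2, with a mean of -0.30 ± 0.21 (SD, n = 2 arrays). Both genes had a limma adjusted p of 1.00, and in both the knockout samples lay below the controls, by less on array 2.

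By class, the 14 measured genes of ligand processing and storage (proprotein convertases, latent TGF-beta binding proteins and fibrillins among them) had 7 below 0 on both arrays and 0 above, with a median of -0.19. Of the 7 receptor-activated and inhibitory SMADs, 1 was below 0 on both arrays, none above, and 6 had opposite signs. The 12 other ligands had 4 below and 3 above, and the 14 other antagonists 2 below and 4 above. The 4 other receptors had 3 below and none above, with a median of -0.09, and the 12 intracellular genes 4 below and 2 above. Over all genes the shares were 24.6% below and 21.7% above. The lists were chosen with results of these data known, and these counts carry no test.

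Markers of the cell types in the ureter were read in the same way, and no marker of epithelium, mesenchyme or smooth muscle passed (limma). All 12 markers of the epithelium (among them Epcam, Cdh1 and Krt19) were above 0 on both arrays (all genes 21.7%), with a median of 0.24. Their summed intensity was 273192 in knockout and 233973 in control on array 1, and 241573 and 220491 on array 2. Of 12 mesenchyme markers, 8 were below 0 on both arrays (among them Foxf1 and Col1a1), beside 24.6% of all genes. Another 3 were above (Tbx2, Tcf21 and Dcn), beside 21.7% of all genes. Tbx18 had opposite signs. The median of their means was -0.16, with -0.19 on array 1 and -0.03 on array 2. Their sums were 521208 and 560828 on array 1, and 492365 and 523063 on array 2. Of 7 smooth muscle markers 1 was below and 3 above, with a median of 0.12 and sums of 21295 and 22301, and 20473 and 17244. All markers of these 3 types were well above background in every channel. So were 6 of 6 measured nephron and kidney, 7 of 7 neuron and glia and 6 of 7 skeletal muscle markers. Detection alone thus does not single out the labelled tissue. Dcn counts both as a mesenchyme marker and as a pathway gene. The part of these 3 cell types in the ratios of the ligands, receptors and antagonists was not tested.

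Markers of neurons and glia differed between the arrays, as did those of skeletal muscle. The 7 neuron and glia markers had a median of -0.54 on array 1 and 0.63 on array 2, with sums of 103076 in knockout and 148502 in control on array 1, and 121066 and 119712 on array 2. The 7 skeletal muscle markers had medians of 0.69 and 0.01, with sums of 6183 and 3438 on array 1, and 4569 and 4141 on array 2. Of 7 macrophage markers measured, none was below 0 on both arrays and 3 were above (all genes 24.6% and 21.7%), with a median of 0.13. Their sums were 13905 in knockout and 14233 in control on array 1, and 16559 and 15380 on array 2. Of 6 mesothelium markers 1 was below and 3 above (median 0.05), with sums of 14426 and 16564, and 18211 and 16369. Among them Upk3b passed, at a mean of 0.77 ± 0.24 (SD, n = 2 arrays; limma adjusted p = 0.0477). The others did not pass. Msln and Gpm6a had means of 0.41 and 0.13, and Wt1, Lrrn4 and Nkain4 of -0.18, -0.13 and -0.03. Upk3b is also a uroplakin gene, and whether its signal came from mesothelium or epithelium was not tested. Of 6 nephron and kidney markers 1 was below and 4 above (median 0.11), with sums of 9289 and 8517, and 10937 and 8261. The part of these cell types in the ratios of the ligands, receptors and antagonists was not tested.

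**Figure D5:**
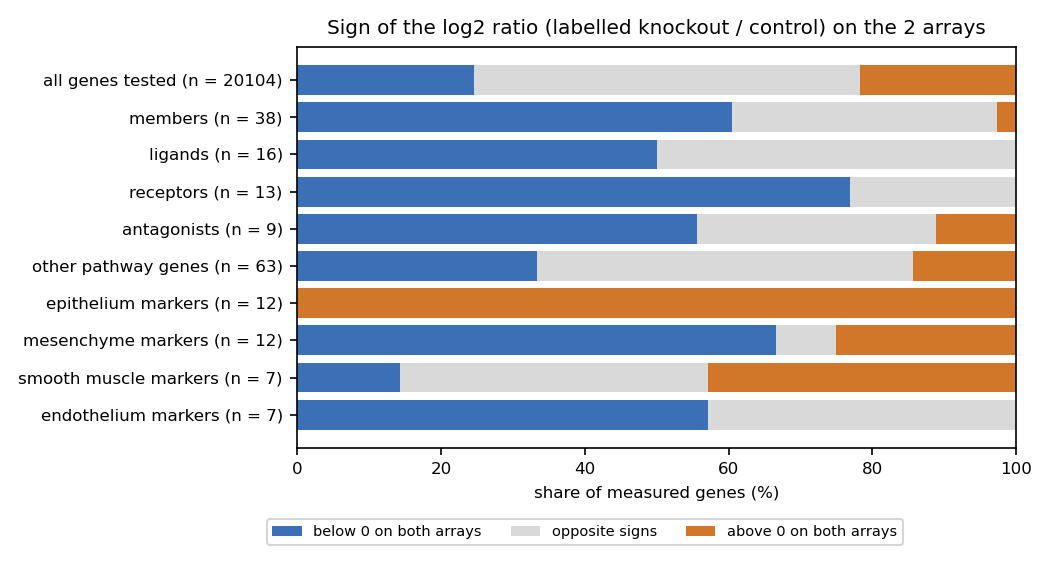
Share of measured genes (x axis, percent) with log2 ratios of labelled knockout over labelled control below 0 on both arrays (blue), of opposite signs (grey) or above 0 on both (orange), for all 20104 genes and for each list (y axis). The blue share is 60.5% for the 38 genes described here and 24.6% for all genes, while the epithelium markers are orange throughout.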

How the data were processed

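Each array held 1 knockout and 1 control sample of E14.5 ureter RNA in different dyes (150 ng input), and samples were grouped by genotype and dye from the labels. Per the file headers, the mean and background intensity of each channel comes from Agilent Feature Extraction (version 10.7.3.1). The deposited files also hold a log10 ratio of red over green. The table that the authors deposited holds a score, namely a signed fold with a median of 1 on each array, and 11261 and 11489 probes at exactly 1. Its log2 correlated over probes with red over green at 0.822 and -0.739 on arrays 1 and 2, which is control over knockout by the dyes, and the sources used here do not give its scaling or centring. It served as an alternative only.

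Intensities were corrected by normexp (offset 50) and loess, with control spots at weight 0. Outlier spots (3.52% and 3.66%) were left out, and the 4 spots of a probe were averaged. The filter kept 26522 of 39429 probes, those with 2 or more spots well above background on both arrays for 1 genotype or both. Each gene was read through its brightest kept probe. Channel values were additionally Aquantile-normalised. The 2 ratios were tested against 0 (two-sided) in limma 3.58.1 under R 4.3.3, with 1 residual degree of freedom and a prior of 9.21. Only this fit was tried on simulated ratios, not the correction, normalisation, filter or choice of probe. The pairing comes from the shared array. Both arrays lay on 1 slide and scan. Precision is limited by the number of arrays, 2.

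The genes and lists were chosen with earlier results of these data known. Values in every channel are given for each gene that passed, the 4 largest absolute means per role, genes whose arrays differ by over 0.5, and genes whose probes differ in sign, and from the other pathway genes for those that passed and the 4 largest means. The alternatives changed the background (none, or an offset of 0), the signal source (Agilent's processed signals or the deposited values), the normalisation (median centring or Aquantile), the filter (none or stricter), the probe rule (mean over probes), the prior (with trend), the pairing (unpaired channels), the threshold, and the arrays used (each alone). Protein sequences were not used here. Plots were drawn with matplotlib.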

Additional observations from a re-analysis of the deposited data

How the results depend on the processing

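No ligand, receptor or antagonist passed under any alternative tested, also at an adjusted p of 0.1 (0 genes), whereas an unadjusted p of 0.05 in place of the adjusted one gave 5. The median stayed between -0.16 and -0.10 in all settings that keep both arrays, and the number below 0 on both arrays between 17 (median centring) and 24 (no filter). The number above 0 on both arrays was 0 with median centring (all genes 24.6%) and 3 with the mean over probes (all genes 22.9%). Each array alone gave a median of -0.0777 (array 2) to -0.16 (array 1), with 26 to 34 genes below 0 and 12 to 4 above. Among other pathway genes 1 gene, Crim1, passed when Agilent's processed signals were used, without background correction, with the offset at 0, with the stricter filter, the mean over probes, the deposited values and the prior with trend. The cause was not tested. Over all genes, 66 passed as reported, 194 with processed signals, 115 without background correction, 131 with the offset at 0, 191 with the deposited values, 156 with the trended prior, 26 with unpaired channels, and 0 with median centring or without the filter.

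Aquantile, both filters, the trended prior and unpaired channels leave the ratio of a gene's probe as it is. Under the 8 other alternatives, 135 of 144 means of the 18 genes named by rule kept their direction and 9 reversed, in 5 genes. With median centring Acvr1b read 0.0098 and Acvr2a 0.0012. With the mean over probes Acvr1b read 0.0218, Acvr2a 0.0543 and Tgfbr1 0.0555, which follows from the second probes. On array 2 alone Bmp5 read -0.0747, Bmp6 0.23, Acvr1b 0.14 and Acvr2a 0.0924, where array 1 alone gave Bmp5 0.58 and Bmp6 -0.30. No replicate block beyond the array could be fitted, because each array pairs its own 2 samples. With the 4 channels as unpaired samples (no replicate block) 0 of these genes passed, with a median of -0.14. No further paired analysis was possible because the ratio within an array is already the pair. With 2 arrays, changes smaller than the intervals given cannot be resolved, and Grem1, Bambi and Chrdl1 are at the limit of the signal over background.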
